A study of Mus musculus with 30 samples.

Results

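The cells compared were the E-cadherin-negative and the E-cadherin-positive fractions of mouse SFEB aggregates on day 2 of differentiation, 1 sample each and 2 of the 10 samples of the series. They were taken by their labels: day 2 of culture and the surface sort for E-cadherin. SFEB is a floating culture in which embryonic stem (ES) cells, dissociated to single cells, reaggregate in a medium with few growth factors. The growth protocol gives the medium as used with or without fetal calf serum and does not say which applied to these cells. The samples of the series were the day 2 E-cadherin-negative and day 2 E-cadherin-positive fractions, day 1 cells, day 3 Sox1-positive and Sox1-negative cells, day 4 and day 5 Sox1-positive cells, and 3 samples of undifferentiated ES cells sorted as E-cadherin-positive. Every sample came from a 129-derived Sox1-GFP line, in which green fluorescent protein reports Sox1, an early neuroectodermal gene, so the controls carry the reporter too. Each sample was measured on the Affymetrix U74v2 A, B and C chips, 6 arrays for the day 2 sorts and 30 for the series. The labels do not say whether the 3 ES samples were separate cultures.

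E-cadherin, encoded by Cdh1, is the adhesion molecule that holds ES cells and the epithelial epiblast together through catenins. In the embryo, cells that become neural plate exchange E-cadherin for N-cadherin, encoded by Cdh2, as the neural tube forms, while the factors of the pluripotency network (Pou5f1, Nanog, Sox2, Esrrb) are shut down in stages and Sox2 is kept. The series' design text names E-cadherin as a mark of undifferentiated cells and Sox1 as a mark of neuroectoderm. The day 2 sort thus sets the fraction without the surface mark against the fraction that kept it, within the same culture day.

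Values were linear array intensities. A difference is given throughout as log2(intensity + 16) in the E-cadherin-negative minus the E-cadherin-positive sample, a scale that understates changes of dim genes. With 1 sample on each side the differences have no replicate check and no p-value. Differences of 1 or more were counted, and the spread among the 3 ES samples serves as the yardstick. In samples of sorted cells, fewer cells of a type and less RNA per cell cannot be told apart. Median intensities lay between 177 and 278 over the 30 arrays. The signal ratio of the 3' to the 5' actin control probe sets, which moves with RNA integrity, was 1.23 to 1.33 in the E-cadherin-negative sample and 1.11 to 1.14 in the E-cadherin-positive sample on the 3 chips. It was 1.64 to 1.85 in ES sample 3 and 1.33 to 1.44 on day 5. The same ratio for Gapdh on the A, B and C chips was 1.03, 0.96 and 0.93 in the E-cadherin-negative sample. In the E-cadherin-positive sample it was 0.82, 0.88 and 0.91. On the A and B chips the E-cadherin-negative value was the highest of the 10 samples. The median difference over genes ran with brightness, at 0.13 in the dimmest and -0.21 in the brightest genes, and lay within 0.03 of 0 in each brightness class after quantile normalization. The part of RNA integrity in the results was not tested.

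The probe set for the transcript of the sorting antigen did not separate the fractions. Cdh1 (probe set 98140_at) had an intensity of 565 in E-cadherin-negative and 572 in E-cadherin-positive cells, against 722, 557 and 451 in the ES samples, a difference of -0.02. The Cdh1 signal spanned 404 to 722 over the series. Its difference between Sox1-positive cells of days 4 and 5 and ES cells was -0.39, inside the ES range of 0.66. This probe set thus separates samples weakly. The sort was on the surface protein, so the array cannot check it through this gene. Cdh2 (102852_at), the neural cadherin, had 1601 in E-cadherin-negative and 347 in E-cadherin-positive cells, against 176, 276 and 279 in ES cells. Its difference of 2.15 exceeded the ES range of 0.62, and the E-cadherin-positive value stood somewhat above the ES samples. Sox1 (92342_at) had 251 in E-cadherin-negative and 253 in E-cadherin-positive cells, both above the ES values of 173, 156 and 138. The Sox1 signal spanned little in the whole series, with 308 in day 3 Sox1-positive against 241 in day 3 Sox1-negative cells, so this probe set separates sorted fractions weakly. Pou5f1 (103075_at), the POU factor of pluripotent cells, had 4024 in E-cadherin-negative and 11905 in E-cadherin-positive cells, against 7572, 8778 and 6836 in ES cells. Both fractions left the ES values, in opposite directions. The difference between them was -1.56, and -1.31 after quantile normalization. On the same chip a bright Gapdh control probe set had 46756 in the E-cadherin-positive and 29851 in the E-cadherin-negative sample. In the ES samples it had 28489, 25858 and 34624. Whether the E-cadherin-positive rise of Pou5f1 above ES cells shares this shift was not tested. A dimmer Pou5f1 probe set (170285_at) had 348 and 389 in the E-cadherin-negative and E-cadherin-positive samples, a difference of -0.15, and the mean over both was -0.86.

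Of 12941 genes tested, 902 (6.97%) were higher by 1 or more in E-cadherin-negative cells and 618 (4.78%) were lower. Together these were 1520 genes, or 11.7%. Between pairs of ES samples the same count was 953 (7.36%), 1331 (10.3%) and 677 (5.23%). The day 2 fractions therefore differed in more genes than any of the ES pairs, but by a margin that was small against the pair of ES samples 1 and 3. Differences of 2 or more were found in 290 genes (2.24%) between the fractions, 197 higher (1.52%) and 93 lower (0.719%), and in 136 (1.05%), 183 (1.41%) and 79 (0.61%) between ES pairs. Requiring a gene's difference to exceed its own ES range left 763 higher (5.9%) and 528 lower genes (4.08%).

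**Figure D1:**
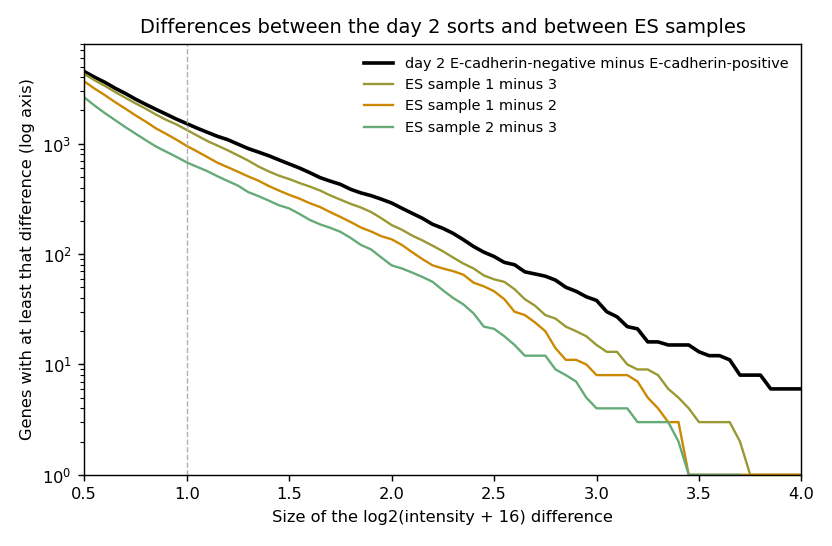
Number of genes (log axis) with at least a given log2(intensity + 16) difference, for the day 2 E-cadherin-negative minus E-cadherin-positive fractions (black) and for the 3 pairs of ES samples (coloured). At a difference of 1 (dashed line) the black line stands at 1520 genes and the ES pairs at 677 to 1331; the black line stays above the others to the right.

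The fraction without E-cadherin stood farther from ES cells than the fraction with it. Of the 12941 genes, 1576 lay 1 or more from the mean of the ES samples in E-cadherin-negative cells, against 896 in E-cadherin-positive cells. The count was 685 in day 1 cells, 1904 in day 3 Sox1-positive and 791 in day 3 Sox1-negative cells, 2004 on day 4 and 2354 on day 5. Pairs of ES samples, themselves sorted as E-cadherin-positive, differed in 677 to 1331 genes, counted between single samples and not from the mean. The 896 lay within these pair counts and the 1576 above them. Of the 902 higher genes, 386 left the ES mean by 1 or more in E-cadherin-negative cells alone, 219 in E-cadherin-positive cells alone, 35 in both and 262 in neither. Of the 618 lower genes, these numbers were 336, 94, 10 and 178. These splits use the same arrays as the difference and are a description of where the values lay. In 694 of the 902 genes the E-cadherin-negative value was above the 3 ES samples, and in 500 of the 618 it was below them.

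**Figure D2:**
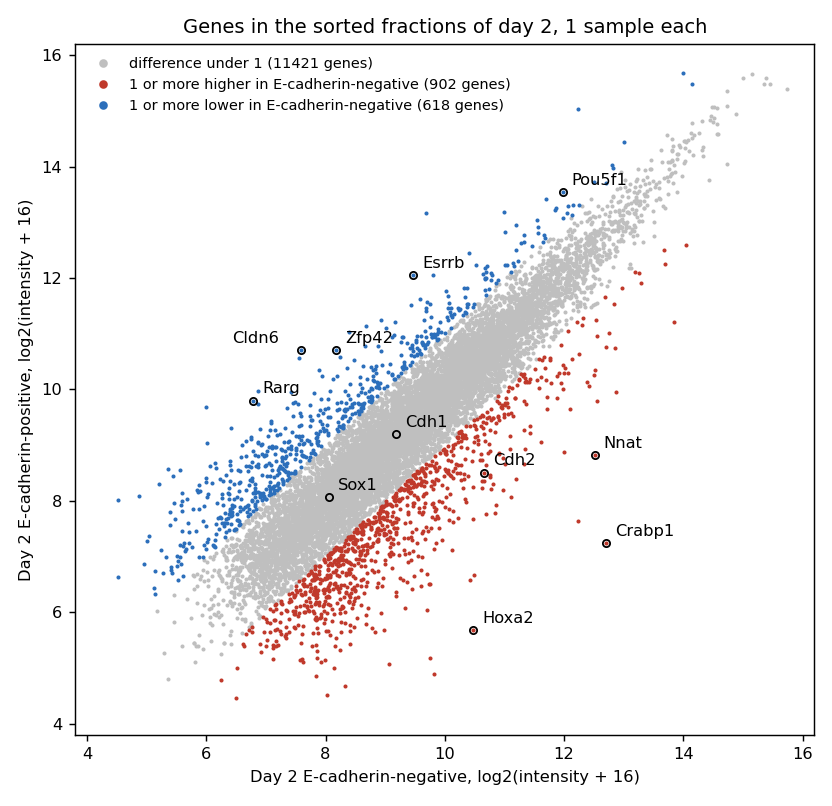
Each of 12941 genes by its log2(intensity + 16) in the day 2 E-cadherin-negative (horizontal axis) and E-cadherin-positive sample (vertical axis), 1 sample each; red genes were 1 or more higher and blue genes 1 or more lower in E-cadherin-negative cells. Crabp1, Hoxa2 and Nnat lie far to the right, Esrrb, Zfp42, Cldn6 and Rarg far above the diagonal, and Cdh1 and Sox1 on it.

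The 14 genes with the largest differences in favour of E-cadherin-negative cells, among those at or above their chip's median in the higher fraction, were led by Crabp1 and Ednrb. Crabp1 (98108_at), a cytoplasmic binding protein of retinoic acid, had 6659 in E-cadherin-negative and 136 in E-cadherin-positive cells, against 329, 283 and 342 in ES cells, a difference of 5.46. The E-cadherin-positive value was below every ES sample and the day 1 value of 862, while the E-cadherin-negative value approached the 11405 of day 3 Sox1-positive cells. Ednrb (163124_s_at), an endothelin receptor of neural progenitors and neural crest, had 889 in E-cadherin-negative and 13.8 in E-cadherin-positive cells, against 88.8, 20.5 and 91.2 in ES cells, a difference of 4.92.

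The hindbrain Hox genes Hoxa2 (171063_at) and Hoxa3 (163890_at) followed. Hoxa2 had 1409 in E-cadherin-negative and 35.2 in E-cadherin-positive cells, a difference of 4.80, but its ES values of 23.4, 249 and 329 spread over 3.13. Hoxa3 had 845 in E-cadherin-negative and 20.1 in E-cadherin-positive cells, a difference of 4.58, with ES values between 16 and 259. A further Hoxa3 probe set (102087_at) gave a smaller difference of 1.33, and the mean over both was 2.95. In both genes the E-cadherin-negative signal was above the 3 ES samples. Nhlh2 (166814_f_at), a helix-loop-helix factor of newborn neurons, had 4781 in E-cadherin-negative and 182 in E-cadherin-positive cells, against 111, 325 and 279 in ES cells, a difference of 4.60. It then stood at 629 in day 3 Sox1-positive cells and reached 5140 on day 5.

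The transcription factors Pou3f3 (163586_at), Tshz1 (106265_at) and Dach1 (114999_at) differed by 4.00, 3.85 and 3.83. Pou3f3, a POU factor of the neural tube, had 520 in E-cadherin-negative and 17.4 in E-cadherin-positive cells, against 66.8, 18.1 and 66.9 in ES cells. Dach1, a nuclear cofactor of neural and eye development, had 1422 in E-cadherin-negative and 85.4 in E-cadherin-positive cells, against 82.7, 163 and 303 in ES cells. For both, the E-cadherin-negative value lay clear of the ES samples and below the Sox1-positive samples of days 3 to 5. Tshz1, a zinc finger gene, had 1352 in E-cadherin-negative and 79.0 in E-cadherin-positive cells, against 148, 424 and 428 in ES cells. Nnat (97520_s_at), an imprinted gene of neuroectoderm, had 5826 in E-cadherin-negative and 437 in E-cadherin-positive cells, against 146, 178 and 122 in ES cells, a difference of 3.69. Both fractions stood above the 3 ES samples.

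Cnmd (165981_i_at, 3.66), which encodes a cartilage matrix protein, Zeb2 (169285_f_at, 3.65), a zinc finger repressor of Cdh1 with a role in neural plate formation, Cdh11 (139147_at, 3.52), a cadherin of mesenchyme and neural tissue, Dpysl4 (93379_at, 3.30), a gene of axon growth, and the RIKEN transcript 9030025P20Rik (165945_at, 3.25) completed the 14. Zeb2 had 305 in E-cadherin-negative and 9.5 in E-cadherin-positive cells, against 16.3, 151 and 161 in ES cells. Another Zeb2 probe set (114747_at) had 258 in E-cadherin-negative and 74.8 in E-cadherin-positive cells, a difference of 1.59. Both probe sets were thus higher without E-cadherin, while ES samples 2 and 3 were far above ES sample 1. Cdh11 had 245 in E-cadherin-negative and 6.8 in E-cadherin-positive cells, but its other probe set (100006_at) differed by 0.32, so the size for this gene depends on the probe set.

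**Figure D3:**
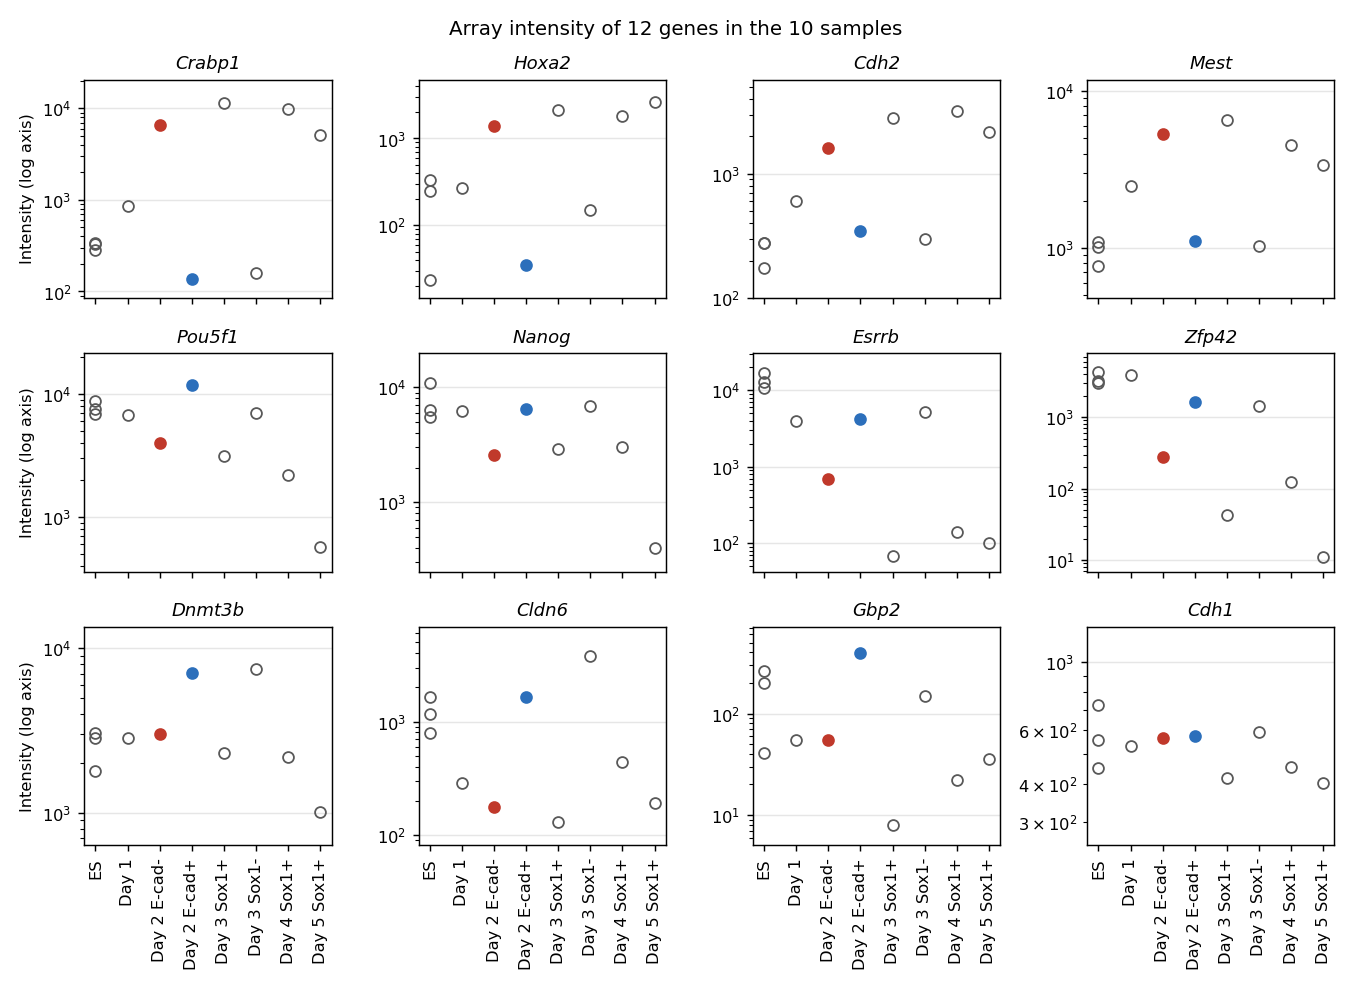
Intensity (log axis) of 12 genes in the 10 samples, 1 point per sample, with the day 2 E-cadherin-negative sample in red, the day 2 E-cadherin-positive sample in blue and the other samples as open circles. Crabp1, Hoxa2, Cdh2 and Mest are higher in the red than in the blue sample, Pou5f1, Nanog, Esrrb, Zfp42, Dnmt3b, Cldn6 and Gbp2 are lower, and Cdh1 is level.

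Neural progenitor genes, a list of transcription factors, binding proteins and receptors of the neural plate and tube, gave the highest list median. Of 37 tested, 22 were higher by 1 or more in E-cadherin-negative cells and 0 lower, with a median difference of 1.33. Over all genes tested 6.97% were higher and 4.78% lower, with a median of 0.03, and each list below is to be read against these shares. Besides those above, Fabp7, a fatty acid-binding protein of radial glia, had 1849 in E-cadherin-negative and 227 in E-cadherin-positive cells. Its difference was 2.94, and the ES range of this gene was almost as large, at 2.79. Sox21 had 1629 in E-cadherin-negative and 200.4 in E-cadherin-positive cells (2.93), and Irx3 had 1595 in E-cadherin-negative and 313 in E-cadherin-positive cells (2.29). Sox11 had 14736 in E-cadherin-negative and 2349 in E-cadherin-positive cells (2.64). All 3 encode transcription factors of neural progenitors. The ES range of Sox11, at 3.44, was larger than its difference. The zinc finger gene Zic1 (385 in E-cadherin-negative and 65.6 in E-cadherin-positive cells, 2.30), the D-type cyclin Ccnd2 (2.39) and Crabp2 (2.21) were also higher. Pax6, a factor of neural and eye progenitors, had 391 in E-cadherin-negative and 170 in E-cadherin-positive cells, against 170, 175 and 158 in ES cells, a difference of 1.13.

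The other 15 members were under 1. Sox2, shared by pluripotent and neural cells, had 3746 in E-cadherin-negative and 6278 in E-cadherin-positive cells, a difference of -0.74. Nes, an intermediate filament of neural stem cells, had 1341 in E-cadherin-negative and 828 in E-cadherin-positive cells (0.69). For the Notch target Hes5 the kept probe set (171563_i_at) was level in the series, with a difference of 0.07, whereas another (161051_at) had 264 in E-cadherin-negative and 44.1 in E-cadherin-positive cells, a difference of 2.22. Among the higher members, Nr2f1, a nuclear receptor of the developing brain, had 132 in E-cadherin-negative and 26.5 in E-cadherin-positive cells (1.79), far under its 852 in day 3 Sox1-positive cells and 4099 on day 5.

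In the neuronal list 12 of 22 were higher by 1 or more and 0 lower, with a median of 1.13, against 6.97% higher over all genes tested. With the mean over probe sets the count was 10 of 22 and the median 0.88. On the kept probe sets, 10 of the 12 exceeded their ES range. The list's median was 0.34 in the day 3 Sox1 sort. It was 0.23 in Sox1-positive cells of days 4 and 5 against ES cells. The RNA-binding protein gene Elavl4 had 680 in E-cadherin-negative and 69.0 in E-cadherin-positive cells, against 106, 130 and 124 in ES cells, a difference of 3.03. Neurod4, a proneural factor, had 216 in E-cadherin-negative and 20.4 in E-cadherin-positive cells (2.67), and the neurofilament gene Nefm had 1111 in E-cadherin-negative and 209 in E-cadherin-positive cells (2.32). The microtubule-binding protein gene Dcx, of migrating neurons, had 357 in E-cadherin-negative and 61.4 in E-cadherin-positive cells (2.27). For Neurod4 and Dcx the E-cadherin-negative signal was above that of the day 3 Sox1-positive sample, at 41.5 and 111, and below that of day 5, at 556 and 552. Tubb3, the neuronal tubulin, had 6343 in E-cadherin-negative and 5039 in E-cadherin-positive cells (0.33), against 4616 to 5952 in ES cells. The neuron marker Stmn2 had 1277 in E-cadherin-negative and 562 in E-cadherin-positive cells (1.16), against 893, 1674 and 1222 in ES cells. For Stmn2 it was thus the E-cadherin-positive value that left the ES samples. Chosen after their values were seen, Myt1, a zinc finger factor of early neurons (2.93), and the host gene of a brain microRNA, Mir124-2hg (3.14), were also higher in E-cadherin-negative cells.

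Hox genes, which set position along the body axis, were higher in 8 of 17 tested and lower in 0, with a median of 0.87. With the mean over probe sets 6 were higher, with a median of 0.84. On the kept probe sets, 7 of the 8 exceeded their ES range. The 8 were of the 3' and central part of the clusters, paralogue groups 2 to 5. Beside Hoxa2 and Hoxa3, Hoxb4 (132496_f_at) had 7490 in E-cadherin-negative and 976 in E-cadherin-positive cells (2.92), although the mean over its probe sets was 0.78. Hoxb2 had 4382 in E-cadherin-negative and 785 in E-cadherin-positive cells, against 551, 883 and 926 in ES cells (2.46). Hoxa5 (1.85), Hoxc5 (1.73), Hoxb5 (1.44) and Hoxb3 (1.40) were higher too, while Hoxb8 (-0.04) and Hoxc8 (-0.38) were near level. Hoxa5 then stood at 160, 68.9 and 47.8 in the Sox1-positive cells of days 3 to 5, against 283 in day 2 E-cadherin-negative cells.

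Retinoic acid is the signal that opens the 3' Hox genes in the hindbrain, and genes of its handling split. Among 13 tested, Crabp1 and Crabp2 were higher in E-cadherin-negative cells and the receptor gene Rarg lower, with a list median of 0.14. Rarg (102419_at) had 94.3 in E-cadherin-negative and 876 in E-cadherin-positive cells, against 773, 972 and 917 in ES cells, a difference of -3.02. The E-cadherin-positive value sat among the ES samples, and Rarg stood at 49.9, 68.1 and 29.5 in Sox1-positive cells of days 3 to 5. The receptors Rara (0.10) and Rarb (0.47), the synthesis enzyme Aldh1a2 (0.09) and the degrading enzyme Cyp26a1 (-0.32) differed by less than 1.

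Imprinted genes were higher in 10 of 21 and lower in 2, with a median of 0.99. With the mean over probe sets 7 were higher and 1 lower, and the median was 0.86. On the kept probe sets, 7 of the 10 exceeded their ES range. The paternally expressed Mest had 5331 in E-cadherin-negative and 1105 in E-cadherin-positive cells, against 766, 1010 and 1088 in ES cells, a difference of 2.25. Ndn had 1565 in E-cadherin-negative and 311 in E-cadherin-positive cells (2.27), and Sgce had 904 in E-cadherin-negative and 215 in E-cadherin-positive cells (2.00). For these 3 genes and Nnat the E-cadherin-negative value lay outside the ES range. Igf2, a growth factor, had 1412 in E-cadherin-negative and 288 in E-cadherin-positive cells (2.23), inside the spread of its ES values of 362, 2432 and 2496. The placental genes Slc38a4 (-1.23) and Phlda2 (-1.05) were lower.

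Mesenchymal genes were higher in 4 of 15 and lower in 0, with a median of 0.61. The share of all genes tested that was higher was 6.97%. The 4 were Zeb2, Cdh11, Cdh2 and Acta2, and Acta2 (1.23) lay inside its ES range of 3.43, which left 3 beyond it. The classic factors of epithelial to mesenchymal change that were tested, Snai2 (-0.02), Twist1 (0.61), Twist2 (-0.12) and Foxc2 (-0.14), and the matrix gene Fn1 (-0.59) differed by less than 1. Among 20 adhesion genes 7 were higher and 2 lower, with a median of 0.08. Pcdh18, a protocadherin, had 1570 in E-cadherin-negative and 284 in E-cadherin-positive cells (2.40), with ES values from 72.9 to 863. Cdh4, the retinal cadherin (2.08), the cell adhesion molecule gene Ncam1 (1.64), Cdh6 (1.15) and the neural catenin Ctnnd2 (1.05) were higher. The catenins of the E-cadherin junction, Ctnna1 (-0.14), Ctnnb1 (-0.22) and Ctnnd1 (0.51), differed by less than 1.

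The genes with the largest differences in favour of E-cadherin-positive cells were of mixed function. Ccno (114581_at), a cyclin-like gene, had 47.6 in E-cadherin-negative and 805 in E-cadherin-positive cells, against 345, 216 and 116 in ES cells, a difference of -3.69. Cldn6 (163262_at), a claudin of tight junctions in early epithelia, had 176 in E-cadherin-negative and 1660 in E-cadherin-positive cells, against 787, 1659 and 1166 in ES cells, a difference of -3.12. Serpinb9b (166976_at), a protease inhibitor, had 13.2 in E-cadherin-negative and 256 in E-cadherin-positive cells, against 605, 580 and 417 in ES cells, a difference of -3.22. The Ccno signal in E-cadherin-positive cells was above the ES samples, that of Cldn6 was among or next to them and that of Serpinb9b was below them.

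Gbp2b (95974_at, -3.49), Ifi35 (100013_at, -3.22) and Shfl (114836_at, -3.02) are interferon-induced genes, and Calhm6 (135693_at, -3.10) encodes a channel protein of the calcium homeostasis modulator family. Adamtsl4 (107890_at, -3.0) encodes an extracellular matrix protein, Lpar1 (100435_at, -3.01) a receptor for lysophosphatidic acid, Pld1 (110715_at, -2.99) a phospholipase, and Heatr3 (111084_at, -2.89) a repeat protein. The predicted gene Gm19705 (134141_at, -3.10) had 101 in E-cadherin-negative and 982 in E-cadherin-positive cells. Gchfr (168197_r_at, -3.48), a regulator of tetrahydrobiopterin synthesis, had 803 in E-cadherin-negative and 9154 in E-cadherin-positive cells, but ES values from 4700 to 30452 and other probe sets at -0.47 and 0.45. For Gchfr and Pld1, whose mean over probe sets was -0.76, the large difference rests on 1 probe set.

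Pluripotency factors gave the lowest list median. Of 31 tested, 19 were lower by 1 or more in E-cadherin-negative cells and 1 was higher, with a median of -1.22, against 4.78% lower over all genes tested. With the mean over probe sets 11 were lower and 2 higher, and the median was -0.91. Esrrb (168508_at), a nuclear receptor of naive cells, had 695 in E-cadherin-negative and 4243 in E-cadherin-positive cells, against 12861, 10661 and 16886 in ES cells, a difference of -2.58. Zfp42 (98414_at), the zinc finger gene also called Rex1, had 275 in E-cadherin-negative and 1655 in E-cadherin-positive cells, against 4338, 3049 and 3243 in ES cells, a difference of -2.52. For both genes the E-cadherin-positive cells were already below the 3 ES samples, and the E-cadherin-negative cells lower still. Nr0b1 (93141_at), an orphan nuclear receptor, had 395 in E-cadherin-negative and 2224 in E-cadherin-positive cells, against 2807, 2227 and 2217 in ES cells, a difference of -2.45. Klf2, a Krüppel-like factor, had 171 in E-cadherin-negative and 833 in E-cadherin-positive cells (-2.18), the second value above the ES samples of 609, 305 and 526.

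Nanog (161072_at) had 2552 in E-cadherin-negative and 6429 in E-cadherin-positive cells, against 10940, 5465 and 6292 in ES cells, a difference of -1.33. A dimmer Nanog probe set (161653_f_at) had 154 in E-cadherin-negative and 227 in E-cadherin-positive cells, against 559 to 628 in ES cells. Nanog thus stood lower without E-cadherin on both, by 1.33 on the first and 0.51 on the second. Utf1 (-1.3), Dppa2 (-1.33), Dppa5a (-1.23), Sall4 (-1.20), Tcl1 (-1.97), Mybl2 (-1.79) and Fbxo15 (-1.75), which are marks of pluripotent cells, were lower as well. Klf4 had left the ES values of 3339, 1854 and 2290 in both fractions, with 533 in E-cadherin-negative and 787 in E-cadherin-positive cells (-0.55). Lin28a (0.14) and Gdf3 (-0.13) were level. The exception was Gbx2, a homeobox gene of naive cells and of the anterior hindbrain, with 1725 in E-cadherin-negative and 336 in E-cadherin-positive cells (2.31), but ES values of 233, 2296 and 2727.

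The upstream stretches of Nanog and Zfp42 are shown because both genes are lower without E-cadherin and carry, within 250 bases before the start, the octamer site read by Pou5f1. They come from the RefSeq promoter table of GRCm38.p6, in which 10336 of the genes tested had an entry. Capitals mark the match, on either strand, to CATTGT, any base and ATGCAAA, the joined SOX and octamer site, in Nanog at chr6:122707239-122707488 on the plus strand, and to ATGCAAA in Zfp42 at chr8:43307010-43307259 on the minus strand. Every match to the longer motif contains the shorter. The match in Nanog begins at -75 and that in Zfp42 at -185 from the start site.
Nanog: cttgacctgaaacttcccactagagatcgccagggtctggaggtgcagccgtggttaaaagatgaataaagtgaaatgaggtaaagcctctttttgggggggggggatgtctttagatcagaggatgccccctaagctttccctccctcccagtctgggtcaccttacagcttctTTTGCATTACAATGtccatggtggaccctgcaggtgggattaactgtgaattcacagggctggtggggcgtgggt
Zfp42: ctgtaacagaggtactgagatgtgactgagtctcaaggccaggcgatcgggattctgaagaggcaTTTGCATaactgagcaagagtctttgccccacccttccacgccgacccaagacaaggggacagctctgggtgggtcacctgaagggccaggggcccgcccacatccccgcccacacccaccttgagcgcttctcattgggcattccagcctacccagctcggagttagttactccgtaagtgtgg
The joined site occurred in 2 of 32851 promoters, both of them starts of Nanog, and the octamer alone in 1355, or 4.12%. Among the 15 pluripotency genes that were lower and had an entry, Nanog and Zfp42 held the octamer. Counted by gene, 3.93% of the lower genes and 3.95% of the higher genes held it, against 3.73% of the genes tested, so the octamer did not set the lower genes apart. A match describes the letters and is not evidence of binding.

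Primed epiblast genes, which mark the stage after naive pluripotency, split, with 5 of 22 higher, 3 lower and a median of -0.36. With the mean over probe sets 3 were higher. The higher members were Cd24a, a surface glycoprotein gene (5818 in E-cadherin-negative and 1216 in E-cadherin-positive cells, 2.24), Fst, an inhibitor of activins (1.91), and the SoxB1 gene Sox3 (1.65), followed by Sox4 (1.45) and Sall2 (1.21). Sox3 had 3771 in E-cadherin-negative and 1192 in E-cadherin-positive cells, against 611, 730 and 764 in ES cells. In Sox1-positive cells of days 4 and 5, Cd24a, Fst and Sox3 stood 2.91, 3.54 and 2.55 above ES cells. These genes were thus not particular to the primed stage. The lower members were Cldn6 and the DNA methyltransferase genes Dnmt3a (-1.3) and Dnmt3b (-1.23). Dnmt3b had 3021 in E-cadherin-negative and 7129 in E-cadherin-positive cells, against 1804, 3075 and 2841 in ES cells. It was thus above ES cells in the fraction with E-cadherin and next to them in the fraction without, and day 3 Sox1-negative cells had 7483. Fgf5, the growth factor that marks primed epiblast, did not pass the filter on dim genes and was read as one of the cell type markers. It had 45.3 in E-cadherin-negative and 227 in E-cadherin-positive cells, against 12.5 to 24.2 in ES cells.

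Genes of DNA methylation and chromatin were lower in 7 of 24 and higher in 2, with a median of -0.27. The count of lower genes was 3 after quantile normalization and 4 with the mean over probe sets, where the median was -0.05. Tet1, which oxidises 5-methylcytosine, had 1609 in E-cadherin-negative and 4012 in E-cadherin-positive cells, against 5651, 7490 and 9280 in ES cells (-1.31). Tet2 differed by -1.31 as well, and Jarid2, a partner of Polycomb complex, by -1.34 on the kept probe set (167118_f_at), while Tet3 was higher (1.19). Quantile normalization brought Jarid2 to -0.78 and Tet2 to -0.60, and over all probe sets Tet1 stood at -0.62 and Tet2 at -0.91. Kdm6b, a histone demethylase of H3K27, had 2008 in E-cadherin-negative and 419 in E-cadherin-positive cells (2.22), with ES values of 249, 527 and 1090. Ezh2 (0.27) and Dnmt1 (-0.09) differed little.

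Epithelial genes were lower in 7 of 27 and higher in 0, with a median of -0.33. Beside Cldn6 these were Grhl2, a regulator of epithelial junction genes (229 in E-cadherin-negative and 1200 in E-cadherin-positive cells, -2.31), the junction gene Jup, or plakoglobin (-2.06), and the splicing regulator Esrp1 (-1.94). The desmosomal genes Dsp (-1.26) and Pkp2 (-1.18) and the keratin Krt8 (-1.01) made up the rest. Grhl2 in E-cadherin-positive cells was above the ES values of 559, 819 and 758 and in E-cadherin-negative cells below them. The epithelial surface gene Epcam (0.21), Cldn7 (-0.25), Cldn3 (-0.17), Ocln (-0.17) and Cdh1 itself were near level. The epithelial list therefore split into a group of junction and regulatory genes past 1 and a larger group, 20 of 27, under 1. Grhl3, of the same family and counted with surface ectoderm, had 289 in E-cadherin-negative and 1519 in E-cadherin-positive cells, against 4685 to 5277 in ES cells (-2.33).

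**Figure D4:**
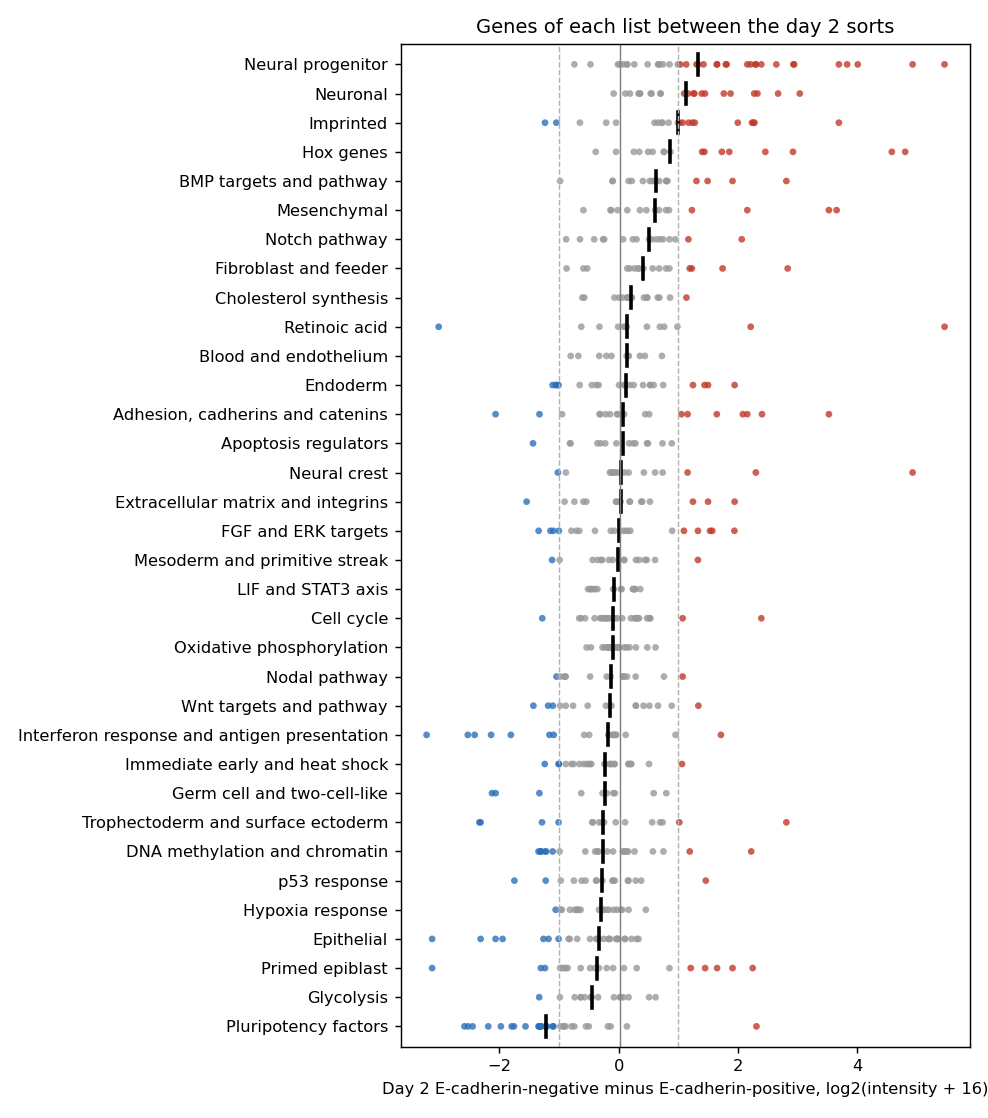
Difference in log2(intensity + 16), E-cadherin-negative minus E-cadherin-positive, of each gene of 34 lists (points) with the list's median (black bar); red points are 1 or more, blue points -1 or less, dashed lines stand at 1 and -1 and the grey line at the median of all genes tested, 0.03. Neural progenitor and neuronal genes have medians of 1.33 and 1.13, pluripotency factors one of -1.22, and the other lists have medians between -0.45 and 0.99.

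Interferon-induced and antigen presentation genes were lower in 7 of 19 and higher in 1, with a median of -0.17. Ifi35 had 24.9 in E-cadherin-negative and 364 in E-cadherin-positive cells, against 161, 114 and 36.4 in ES cells. Gbp2, a guanylate-binding protein, had 55.2 in E-cadherin-negative and 394 in E-cadherin-positive cells, against 41.0, 264 and 198 in ES cells (-2.53). The peptide transporter Tap2 (-2.41), Oasl2 (-2.14), the immunoproteasome subunit Psmb8 (-1.81), Ifitm3 (-1.16) and the factor Irf1 (-1.09) were the others. For Ifi35, Gbp2, Tap2, Oasl2, Psmb8 and Irf1 the E-cadherin-positive value was above the 3 ES samples, and for Ifitm3 it was below them. Class I genes did not share this. B2m, the light chain of class I molecules, had 1165 in E-cadherin-negative and 344 in E-cadherin-positive cells, against 230, 511 and 287 in ES cells (1.71), and H2-K1 (0.12), H2-D1 (-0.17), Stat2 (-0.10) and Irf7 (-0.05) were level.

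The upstream stretches of Gbp2b, Gbp2 and Calhm6 are shown because these genes were lower without E-cadherin and hold GAAA, any 2 bases and GAAA, the core of the interferon-stimulated response element, on either strand within 250 bases before the start. They lie at chr3:142594597-142594846 and chr3:142620413-142620662 on the plus strand and at chr10:34127973-34128222 on the minus strand of GRCm38.p6, in the RefSeq table. Capitals mark the match, which begins at -137, -59 and -64 from the start site.
Gbp2b: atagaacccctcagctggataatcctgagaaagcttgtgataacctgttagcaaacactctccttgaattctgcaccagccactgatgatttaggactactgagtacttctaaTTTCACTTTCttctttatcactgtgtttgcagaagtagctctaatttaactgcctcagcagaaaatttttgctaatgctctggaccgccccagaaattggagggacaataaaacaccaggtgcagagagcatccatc
Gbp2: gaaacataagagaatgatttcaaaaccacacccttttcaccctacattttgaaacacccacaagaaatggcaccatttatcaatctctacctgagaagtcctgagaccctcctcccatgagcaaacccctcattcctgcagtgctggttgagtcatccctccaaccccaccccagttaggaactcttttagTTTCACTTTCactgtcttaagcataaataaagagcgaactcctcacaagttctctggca
Calhm6: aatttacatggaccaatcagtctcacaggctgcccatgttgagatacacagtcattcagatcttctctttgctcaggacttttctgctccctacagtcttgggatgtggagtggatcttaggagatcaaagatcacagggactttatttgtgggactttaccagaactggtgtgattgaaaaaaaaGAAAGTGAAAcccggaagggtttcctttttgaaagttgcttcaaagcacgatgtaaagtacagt
The motif occurred in 978 of 32851 promoters, or 2.98%. By gene it was present in 4.13% of the lower, 2.49% of the higher and 2.84% of the tested genes, and in 1 of the 6 lower interferon genes that had an entry. In Gbp2b the E-cadherin-negative signal was 6.9 and the E-cadherin-positive signal 242, against 47.8, 251 and 139 in ES cells. In Calhm6 these were 20.7 in E-cadherin-negative and 300 in E-cadherin-positive cells, against 286, 156 and 155 in ES cells. Both genes were dim in the fraction without E-cadherin and in the ES range or next to it in the fraction with it.

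Among signalling lists, BMP targets and pathway genes were higher in 4 of 18 and lower in 0, with a median of 0.62. The BMP pathway favours non-neural ectoderm, and the Id genes are among its targets. Its activity was not measured here. Id2, an inhibitor of helix-loop-helix factors, had 2331 in E-cadherin-negative and 319 in E-cadherin-positive cells, against 259, 854 and 683 in ES cells (2.81). Id1 (1.49), Id4 (1.3) and the antagonist Fst (1.91) were the others, and Id3 differed by 0.61. The ligand Bmp4 (-0.10) and the inhibitory Smad7 (-0.98) were under 1. In the Notch list 2 of 17 were higher and 0 lower, with a median of 0.51, a count near the 6.97% of all genes tested and so no result about the list. They were the feedback gene Nrarp (494 in E-cadherin-negative and 106 in E-cadherin-positive cells, 2.06) and the ligand Jag1 (1.17). Dll1 (0.63), Hes1 (0.85) and Notch1 (0.69) were under 1.

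FGF and ERK genes went both ways, 5 of 20 higher and 4 lower, with a median of 0.0027. With the mean over probe sets 2 were higher, and with a pseudocount of 64 only 2 were lower. The higher ones were the feedback regulators Il17rd (1.94), Dusp4 (1.53) and Dusp6 (1.09), Phlda1 (1.57) and the ligand Fgf8 (1.33), which over all its probe sets stood at 0.43. The lower ones were Etv5 (2476 in E-cadherin-negative and 6297 in E-cadherin-positive cells, -1.34), the ligands Fgf15 (-1.14) and Fgf4 (-1.09), and Fos (-1.0). In the Wnt list 1 of 17 was higher and 3 lower (median -0.15), the antagonist Sfrp1 (1.33) against the secreted Wnt inhibitor Notum (-1.43) and the receptors Fzd5 (-1.18) and Fzd7 (-1.10). In the Nodal list Smad3 (1.07) was higher and the co-factor Foxh1 (-1.04) lower out of 15 (median -0.13), with Lefty1 at 42785 in E-cadherin-negative and 49194 in E-cadherin-positive cells (-0.20). The Nodal counts and the Wnt count of higher genes stood near the 6.97% higher and 4.78% lower of all genes tested. They are no result about these lists. The Wnt count of lower genes, 3 of 17, was above the 4.78%, and each of the 3 exceeded its ES range. It was 4 after quantile normalization and 2 with the mean over probe sets. None of the 15 tested LIF and STAT3 genes passed 1 (median -0.08), with Stat3 at 0.28 and Socs3 at -0.08.

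Lists of metabolism, cell cycle, stress and survival had medians between -0.45 and 0.21. Over all genes tested 6.97% were higher and 4.78% lower. The counts past 1 in these lists, each of 3 or fewer in a direction, are too small to be read as a result about them. The lower counts of immediate early and heat shock genes (3 of 26) and of p53 genes (2 of 17) were above the 4.78%. Each of these lower genes exceeded its ES range. With the mean over probe sets the 2 counts were 1 and 2. Oxidative phosphorylation had 0 of 24 in either direction (median -0.10). Glycolysis had 1 of 17 lower, Ldhb (-1.33), with the lowest of these medians at -0.45, which was -0.31 after quantile normalization. Hypoxia genes had 1 of 20 lower, Pdk1 (-1.06, median -0.29), and cholesterol synthesis 1 of 18 higher, Sc5d (1.14, median 0.21). In the cell cycle list Ccnd2 and the inhibitor Cdkn1c (1.07) were higher and the replication gene Mcm6 (-1.28) lower out of 32 (median -0.09), while Mki67 differed by 0.33 and Ccnb2 by -0.07. The p53 list had Rrm2b (1.46) higher and Mdm2 (-1.75) and Sesn2 (-1.22) lower out of 17 (median -0.27), with Cdkn1a at -0.10. Apoptosis regulators had Mcl1 (-1.44) lower out of 14 (median 0.07). Immediate early and heat shock genes had Nr4a1 (1.06) higher and Dusp1 (-1.24), Hspd1 (-1.0) and Fos (-1.0) lower out of 26 (median -0.23).

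Markers of other lineages were read in the same samples. Summed over 4 mesoderm and streak markers on the chips (Eomes, Tbx6, Mesp1 and Kdr) the intensity was 604 in E-cadherin-negative and 629 in E-cadherin-positive cells, against 270 to 406 in ES cells. Kdr was higher in E-cadherin-negative cells (313 against 227) and Eomes, Tbx6 and Mesp1 lower, each by less than 1. For 8 endoderm markers it was 1284 in E-cadherin-negative and 1551 in E-cadherin-positive cells, against 1287 to 1598 in ES cells, and Gata4 (-1.05) was the member past 1. For 7 fibroblast or feeder markers it was 2816 in E-cadherin-negative and 2092 in E-cadherin-positive cells, against 1958 to 2660 in ES cells. For 4 trophectoderm markers it was 532 in E-cadherin-negative and 385 in E-cadherin-positive cells, against 302 to 367 in ES cells. The 6 blood or endothelium markers summed to 561 in E-cadherin-negative and 435 in E-cadherin-positive cells, against 376 to 582 in ES cells, and 0 of 6 reached their chip's median in either fraction. The 8 neural progenitor markers summed to 11281 in E-cadherin-negative and 1844 in E-cadherin-positive cells, against 1657 to 2158 in ES cells. Crabp1 gave most of the first sum. Without it the other 7 summed to 4622 in E-cadherin-negative and 1708 in E-cadherin-positive cells, against 1328 to 1816 in ES cells. The 4 neuron markers summed to 8610 in E-cadherin-negative and 6045 in E-cadherin-positive cells, against 6902 to 7432 in ES cells. The 7 markers of ES or naive cells summed to 8690 in E-cadherin-negative and 26806 in E-cadherin-positive cells, against 33852 to 43370 in ES cells. The 3 primed epiblast markers on the chips summed to 3328 in E-cadherin-negative and 7841 in E-cadherin-positive cells, against 2046 to 3550 in ES cells, with 0 higher and 2 lower by 1 or more. A single gene gave most of several sums in E-cadherin-negative cells. These were Col1a2 (1816) for fibroblast or feeder, Gata3 (414) for trophectoderm, Kdr (313) for mesoderm and streak, Tubb3 (6343) for neuron and Dnmt3b (3021) for primed epiblast markers.

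The longer lists of other lineages held some genes past 1. In the fibroblast list 4 of 17 were higher and 0 lower (median 0.41), among them Col5a2 (2.83), Tagln (1.74) and Acta2 (1.23). Each of these 3 varied by 2.37 or more among the ES samples, with Tagln at 629 in E-cadherin-negative and 177 in E-cadherin-positive cells, against 232, 2445 and 1979 in ES cells. In the endoderm list 4 of 23 were higher and 4 lower, with a median of 0.12. The higher ones were the basement membrane genes Col4a1 (1.94), Col4a2 (1.5) and Sparc, and Serpinh1 (1.44). Col4a2 lay inside its ES range of 2.87. For Col4a1 and Sparc the E-cadherin-positive values, 220 and 292, were below the 3 ES samples. Among the lower ones were Apoe (-1.11), Gata4 and Foxa1 (-1.04). In the neural crest list Ednrb, Zic1 and Cdh6 were higher and Erbb3 (-1.02) lower out of 16 (median 0.04), with Sox10 at 0.10 and Foxd3 at -0.89. In the mesoderm list Fgf8 was higher and Wnt3a (-1.12) lower out of 16 (median -0.0045). Trophectoderm and surface ectoderm genes had Id2 and Krt14 (1.02) higher and 4 lower out of 16 (median -0.26), with Tfap2c (-1.28) and the Grhl genes among the lower. Of 10 germ cell and 2-cell-like genes 3 were lower, Tex19.1 (-2.12), Rhox5 (-2.06) and Dppa3 (-1.33), with a median of -0.23. Matrix and integrin genes (17 tested) had 3 higher and Nid2 (-1.54) lower, and 0 of 11 blood and endothelium genes passed 1 (medians 0.03 and 0.13).

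The day 2 difference was set against 2 comparisons that share no sample with it: the day 3 sort by Sox1-GFP, and Sox1-positive cells of days 4 and 5 (their mean) minus the mean of the ES samples. Over the 12941 genes the day 2 difference correlated with the day 3 difference at a Pearson r of 0.46 (Spearman rho 0.40) and with the days 4 and 5 difference at 0.52 (rho 0.45). These are correlations across genes, which are not independent, and the values of a gene share its probe set. On the C chip alone they were 0.30 and 0.38, against 0.54 to 0.59 on the A and B chips. In the day 3 comparison 187 genes were 2 or more higher in Sox1-positive cells (1.45%) and 207 lower (1.6%). Of the 187, 119 were 1 or more higher in day 2 E-cadherin-negative cells, which is 63.6% of them and 13.2% of the 902, and 6 were lower, where 6.97% of all genes tested were higher. Of the 207, 109 were lower, against 4.78% of all genes tested, which is 52.7% of them and 17.6% of the 618, and 11 were higher.

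Genes gained by Sox1-positive cells of days 4 and 5 were mostly already higher in the E-cadherin-negative fraction of day 2. In the comparison of those days 221 genes were 2 or more higher in Sox1-positive than in ES cells (1.71%) and 208 lower (1.61%). Of the 221, 162 (73.3%, or 18.0% of the 902) were 1 or more higher in day 2 E-cadherin-negative cells and 4 were lower, with a median difference of 1.6, where 6.97% of all genes tested were higher. Of the 208, 112 (53.8%, or 18.1% of the 618) were lower and 4 were higher, with a median of -1.09, where 4.78% of all genes tested were lower. Read the other way, 380 of the 902 higher genes (42.1%) were 1 or more higher on days 4 and 5 than in ES cells, as were 7.69% of all genes tested, and 27 were lower. Of the 618 lower genes, 251 (40.6%) were lower there, against 7.14% of all genes tested, and 15 were higher.

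**Figure D5:**
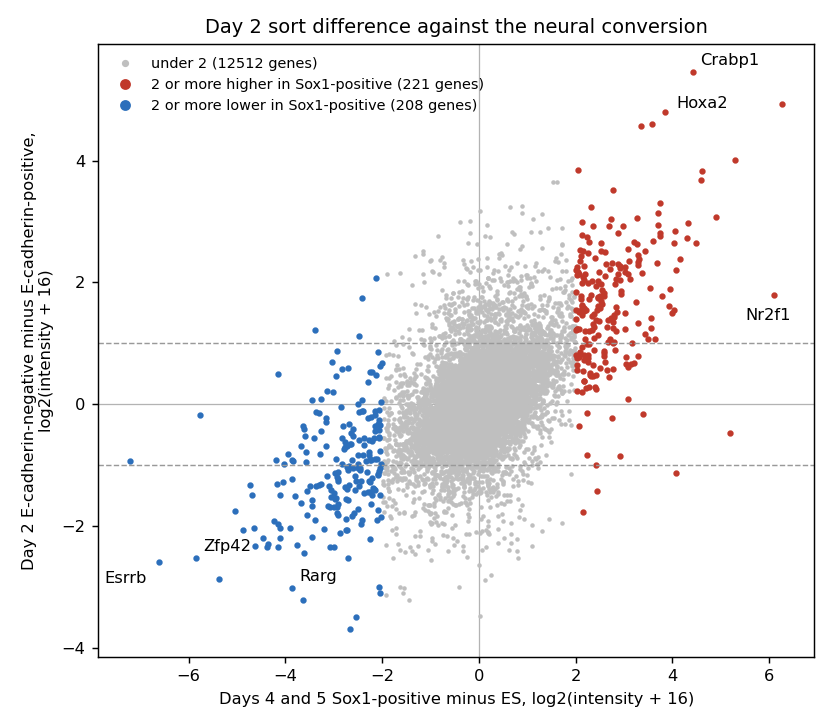
Day 2 E-cadherin-negative minus E-cadherin-positive difference (vertical axis) against the difference of Sox1-positive cells of days 4 and 5 minus ES cells (horizontal axis), both in log2(intensity + 16), 1 point per gene; the red and blue genes are those 2 or more higher and lower on the horizontal axis, and dashed lines stand at 1 and -1. Of the 221 red genes 162 lie above the upper dashed line, and of the 208 blue genes 112 below the lower one.

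Genes that went against the later direction were few. Among genes at or above their chip's median in the higher fraction, with a difference above the ES range, 16 of 652 higher genes were 1 or more lower on days 4 and 5 than in ES cells. Of 468 lower genes 7 were 1 or more higher there. Over all genes tested, 7.14% were 1 or more lower on days 4 and 5 than in ES cells and 7.69% higher. The 3 described here were chosen after their values were seen. Ifi27l2b, an interferon-induced gene, had 649 in E-cadherin-negative and 104 in E-cadherin-positive cells (2.47), against 772, 418 and 506 in ES cells. Slamf7, a receptor of immune cells, had 494 in E-cadherin-negative and 99.97 in E-cadherin-positive cells (2.14), against 381, 336 and 289 in ES cells. In both, the E-cadherin-positive sample stood below the ES samples and the E-cadherin-negative sample near or just above them. Osr2, a zinc finger gene, had 105 in E-cadherin-negative and 497 in E-cadherin-positive cells (-2.09), against 141, 68.6 and 38.4 in ES cells, so it was the E-cadherin-positive sample that left the ES values.

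Other probe sets of the called genes give a partial check within the same RNA. The 902 higher genes had 419 further probe sets past the filter, of which 321 (76.6%) had the same sign and 111 (26.5%) were also 1 or more higher. The 618 lower genes had 292, of which 196 (67.1%) had the same sign and 54 (18.5%) were 1 or more lower. Over all 8187 further probe sets of genes tested, 7.6% were 1 or more higher and 6.58% lower. The kept probe set is the brightest of its gene, and suffixes such as f, s, i and r mark probe sets designed under relaxed rules, some of which can match several transcripts. Where probe sets of a gene disagreed, as for Hes5, Gchfr, Cdh11 and Hoxb4, the value of the gene depends on which is read. With the mean over probe sets, 18 of the named genes came under 1. Beside those given above they included Dusp1 (-0.14), Hspd1 (-0.35), Apoe (-0.54), Fzd7 (-0.70), Mcm6 (-0.74), Nr4a1 (0.75), Slc38a4 (-0.83), Sc5d (0.86), Dusp4 (0.89), Tet3 (0.90), Jag1 (0.95) and Dnmt3a (-0.96).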

How the data were processed

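RNA of sorted cells was labelled with biotin as cRNA and hybridised to the U74v2 A, B and C chips, per the labels' protocols. The authors deposited 1 linear intensity per probe set and array, already scaled, since the 2% trimmed mean lay between 492.9 and 498.6 on the 30 arrays. The software is not given in the sources used here, nor is the background correction. Of 36899 probe sets 198 controls were left out. Of the rest, the platform's tables gave 29131 a single gene, 724 more than 1 and 6846 no gene, and for 29044 an Entrez ID matched RefSeq GRCm38.p6 with 0 symbols differing. Values were analysed as log2(intensity + 16) in Python 3.11.15 with pandas 2.3.3. Probe sets below the chip's 30th percentile of mean intensity were left out (25690 stayed), and the brightest of each gene was kept (12941 genes).

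Samples were grouped by their labels. Neither fraction had a replicate, so no test was made and precision is limited by the number of arrays. Cdh1, Cdh2, Sox1 and Pou5f1 were always named. So were the 14 largest differences each way among genes at or above their chip's median in the higher fraction, with a difference of 1 or more and above the ES range, and up to 3 each way from each of 34 lists. Any other gene was picked with its values known. The members and lists were chosen with earlier results of these data known. Alternatives were pseudocounts of 1 and 64, quantile normalization, scaling to the 75th percentile, a filter at the 60th percentile or none, the mean over probe sets, a stricter difference, and leaving out ES samples, days or chips.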

Additional observations from a re-analysis of the deposited data

How the results depend on the processing

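No paired analysis was possible because the day 2 fractions have 1 sample each and carry no replicate numbers. The counts of 902 higher and 618 lower genes stayed within 1.5 times under pseudocounts of 1 (1001 and 681) and 64 (686 and 455), quantile normalization (866 and 693), 75th percentile scaling, no filter and the mean over probe sets. They were 455 and 346 with a filter at the 60th percentile, which tests 8827 genes, and 197 and 93 for differences of 2 or more. Required to exceed the range of the ES samples left when 1 of them was dropped, they were 812 to 865 and 562 to 581. The correlations of 0.46 and 0.52 kept their sign under every alternative run and were 0.30 and 0.38 on the C chip alone; the cause was not tested. Dropping 1 ES sample gave 0.48 to 0.52 for the second, and dropping ES sample 3 with day 5 gave 0.48. These samples had the highest actin ratios on the A and C chips. On the B chip the E-cadherin-negative sample, at 1.3307, stood level with day 5, at 1.3301. It cannot be left out, so this alternative does not remove its own raised ratio. Without ES sample 3 and day 5, the share of genes lost by 2 or more that were lower in E-cadherin-negative cells was 45.3% in place of 53.8% (chosen after seeing the data). Of 114 named genes, the 112 past 1 kept their sign in each of 560 alternative values, over 5 settings that keep every gene tested, and stayed past 1 in 518; the filter at the 60th percentile, not among these, left out 13 of the 28 genes with the largest differences, among them Hoxa3, Zeb2 and Cdh11, and kept the other 15; 18 of the losses came with the mean over probe sets (Pou5f1 at -0.86) and 15 with a pseudocount of 64. With a pseudocount of 1 another probe set is kept for Cdh11 (0.37). Of 34 list medians, 5 with main values near 0 changed sign in some alternative.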
